A study of Mus musculus with 6 samples.

Results

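SAGA is a large coactivator complex that binds chromatin at promoters, acetylates histone H3, removes ubiquitin from histone H2B and helps to load the TATA-binding protein. It is built from a core of histone-fold proteins, an acetyltransferase module around GCN5 or PCAF, a deubiquitinase module around USP22, and TRRAP, the large scaffold that contacts activators. Several core proteins are shared with TFIID, the general factor that contains TAF4A, while others are paralogues of TFIID subunits that work in SAGA. Transcripts of 10 SAGA subunits were examined by gene symbol: Taf5l, Taf6l, Supt3, Supt7l, Supt20, Tada1, Tada2b, Tada3, Atxn7 and Usp22. All 10 were found among the 22081 genes of the table, and all 10 were among the 18562 genes tested.

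Muscle stem cells (MuSCs) were sorted from adult mice on a C57BL/6 background and sequenced directly after isolation, with 3 Control libraries and 3 libraries labelled Taf4asKO. The Taf4asKO mice carried floxed Taf4a alleles and Pax7CreERT, a Cre recombinase made from the Pax7 locus and active only after tamoxifen, which they received, so deletion was limited to cells that express Pax7. Controls were littermates with floxed Taf4a, described in the methods as either lacking Cre or carrying it, and which of these each Control library was is not given. Where genotypes are listed, tamoxifen is named only for Taf4asKO, and whether the Control mice of these libraries received it is not stated. If they did not, tamoxifen, active Cre and the deletion cannot be told apart between the groups. The labels do not say whether the libraries of a group came from separate animals, so p-values measure only the spread between these samples. Values are called normalized counts, as the whole numbers in the table were taken, from their values and the methods, to be read counts per gene divided by a size factor for each library and then rounded.

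Taf4, the current symbol of Taf4a, stood at 613, 534 and 478 in the Control libraries and at 631, 565 and 574 in those labelled Taf4asKO. The gene-level values therefore did not show the deletion (log2 fold change 0.13, adjusted p = 0.524), and as they sum exons inside and outside the deleted segment, they do not check the labels. Total normalized counts were 12338676 to 14551732 per library. Of 8 muscle stem cell markers, 4 were lower past the threshold in the libraries labelled Taf4asKO (6.71% of all genes tested) and 2 higher (5.93%). The lower ones were Cd34 (0.255-fold), Myf5 (0.555-fold), Cdh15 (0.696-fold) and Itga7 (0.742-fold). Sdc4 (1.84-fold) and Vcam1 (1.67-fold) were the higher ones. Pax7 stood at 12082, 12244 and 13007 normalized counts in Control, against 10669, 10363 and 11164 in Taf4asKO. It was lower in every library labelled Taf4asKO but missed the threshold (0.862-fold, limma adjusted p = 0.161). Markers of other cells were present in all libraries. The summed level of 3 Schwann cell markers was 808 to 2208 in Control and 2718 to 3222 in Taf4asKO. All 3 were higher past the threshold, against 5.93% of all genes tested. For 3 endothelial markers the sum was 185 to 446 in Control and 456 to 722 in Taf4asKO, with 0 past the threshold (12.6% of all genes). The summed level of 6 fibro-adipogenic markers was 53301 to 79195 in Control and 33227 to 55257 in Taf4asKO. Only Col3a1 was lower (47010 to 15880 on average), 1 of 6 past the threshold in that direction, against 6.71% of all genes. The other 5 had higher means with 0 past the threshold, against 5.93% of all genes called higher. The median log2 fold change of the 6 was 0.826. The summed level of 4 myofibre markers was 1000 to 3193 in Control and 1688 to 2239 in Taf4asKO, with 0 past the threshold (12.6% of all genes). Cd68, the 1 immune marker of 4 in the table, stood at 114 to 294 in Control and 174 to 185 in Taf4asKO. No marker in the table was at 0 in any library. Control replicate 1 held the lowest Schwann, endothelial and myofibre sums, the lowest fibro-adipogenic sum of the Controls and the highest Cd68 value. The part of such cells in the results below was not tested. Per the methods, cells with SCA1, CD45 or CD31, which mark fibro-adipogenic, immune and endothelial cells, were depleted, and those with integrin alpha-7 or the Pax7 reporter were sorted. By the study's account, sorted cells that were re-analysed were not fully pure. In bulk samples, fewer cells of a type and less RNA per cell cannot be told apart.

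To learn whether deletion in Taf4a was accompanied by a change in the transcripts of SAGA, each subunit was compared between the groups. A gene passed the threshold with a limma adjusted p under 0.05 over all genes tested and a fold change of at least 1.3. None of the 10 SAGA subunits passed (0 of 10), against 12.6% of all genes tested. At an unadjusted p under 0.05, 3 of 10 were called (Taf6l, Supt3 and Tada1), against 28.8% of all genes, and all 3 were lower, against 14.2% of all genes called lower at that level. The groups did not overlap in 4 subunits, 3 of them lower in the libraries labelled Taf4asKO (16.4% of all genes) and 1 higher (16.6% of all genes). The median log2 fold change was -0.091, beside 0.004 over all genes tested, and the values ran from -0.56 to 0.13, with 6 subunits below 0 and 4 above. In a fit that paired libraries by replicate number (the replicate block) the count was again 0 of 10, against 18.1% of all genes called in that fit.

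**Figure D1:**
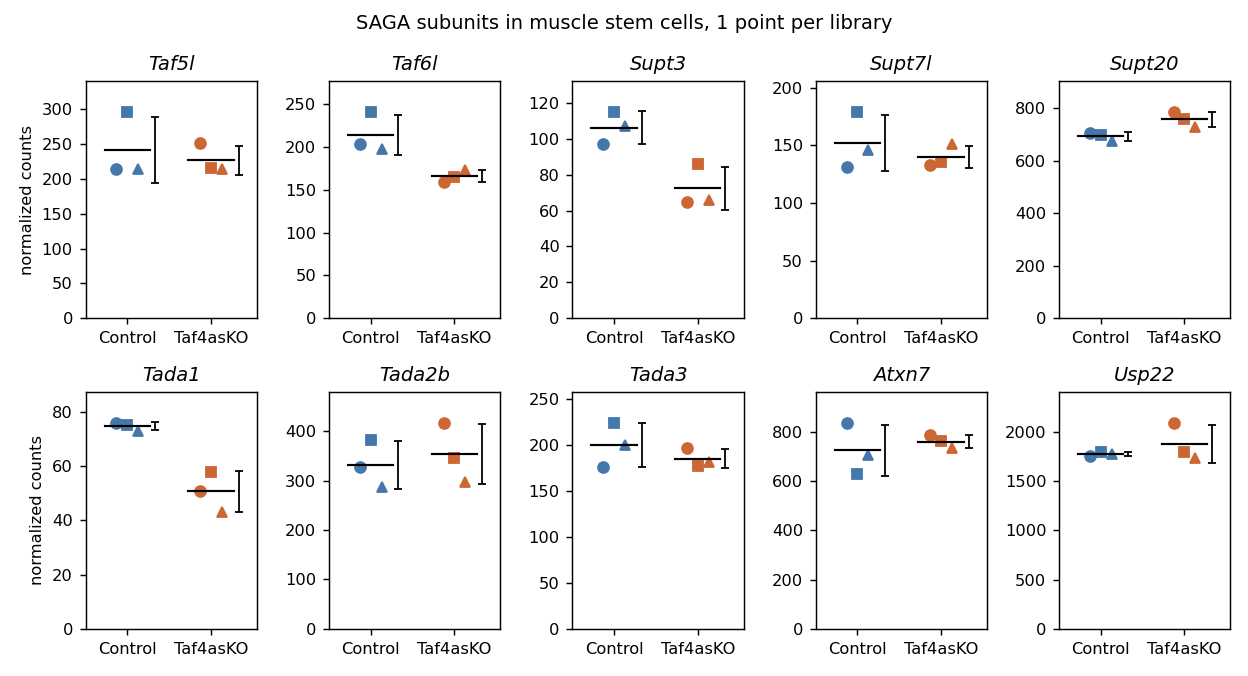
Normalized counts (y axis, from 0) of 10 SAGA subunits in 3 Control (blue) and 3 Taf4asKO (orange) libraries, with circles, squares and triangles for replicates 1, 2 and 3, a line at the group mean and a bar of 1 SD on either side. In Taf6l, Supt3 and Tada1 every library labelled Taf4asKO lay below every Control library, in Supt20 every one lay above, and the groups overlapped in the other panels.

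Taf5l and Taf6l encode the SAGA counterparts of the TFIID scaffold proteins TAF5 and TAF6, TAF5L a WD40-repeat protein and TAF6L a histone-fold protein that also joins the core to TRRAP. Because the ratios of these pairs separated the groups, the start regions of all 4 genes are shown, as given by RefSeq for GRCm38.p6, from 250 bases before to 50 bases after the start. The ratio of Kat2b to Kat2a, given below, separated the groups too, but the start regions of that pair are not shown. The capitals mark CCAAT, the core of the site of NF-Y, and GGGCGG, the core of the GC box bound by SP1, on either strand (ATTGG and CCGCCC on the printed strand), since the study connected TAF4A with both factors.
Taf5l (chr8:124021348-124021647, minus strand): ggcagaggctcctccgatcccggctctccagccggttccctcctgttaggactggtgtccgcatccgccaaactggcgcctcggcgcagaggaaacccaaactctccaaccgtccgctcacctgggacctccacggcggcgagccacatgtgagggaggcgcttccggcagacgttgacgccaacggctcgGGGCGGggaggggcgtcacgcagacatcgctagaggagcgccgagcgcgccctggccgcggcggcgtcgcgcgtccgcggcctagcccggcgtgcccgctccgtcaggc
Taf5 (chr19:47067498-47067797, plus strand): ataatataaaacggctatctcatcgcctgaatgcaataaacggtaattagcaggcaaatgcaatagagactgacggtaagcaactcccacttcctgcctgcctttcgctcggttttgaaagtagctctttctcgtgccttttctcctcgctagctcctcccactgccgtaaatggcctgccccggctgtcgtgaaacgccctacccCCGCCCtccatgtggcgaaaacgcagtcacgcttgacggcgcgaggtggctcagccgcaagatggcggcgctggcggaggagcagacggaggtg
Taf6l (chr19:8786267-8786566, minus strand): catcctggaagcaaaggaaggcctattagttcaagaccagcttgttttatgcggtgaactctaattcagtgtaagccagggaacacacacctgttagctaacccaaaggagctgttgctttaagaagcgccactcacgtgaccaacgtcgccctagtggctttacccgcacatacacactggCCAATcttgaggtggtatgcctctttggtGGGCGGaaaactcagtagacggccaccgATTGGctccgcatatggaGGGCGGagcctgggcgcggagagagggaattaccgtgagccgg
Taf6 (chr5:138187402-138187701, minus strand): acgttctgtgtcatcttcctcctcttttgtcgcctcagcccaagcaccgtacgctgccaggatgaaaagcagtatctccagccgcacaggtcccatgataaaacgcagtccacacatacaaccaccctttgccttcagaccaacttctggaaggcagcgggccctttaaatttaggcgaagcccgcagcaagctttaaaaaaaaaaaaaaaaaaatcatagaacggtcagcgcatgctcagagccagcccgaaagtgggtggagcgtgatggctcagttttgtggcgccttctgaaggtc
RefSeq lists 2 start regions each for Taf5l and Taf6 and 1 each for Taf5 and Taf6l, and the one nearest to the gene's start in the table is shown. The window of Taf6l held CCAAT 68 and 11 bases before the start and GGGCGG 39 bases before it and at position 8 after it. Taf5l and Taf5 each held a single GGGCGG, 59 and 44 bases before the start, and the window shown for Taf6 held neither motif. The start region of Taf6 that is not shown held GGGCGG. That of Kat2a, also not shown, held neither motif. A match describes these letters only, and binding was not measured in these files.

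Taf5l (chr8:123996318-124021397, minus strand, mm10) gave 214, 296 and 214 normalized counts in the Control libraries, against 251, 216 and 214 in Taf4asKO. The groups overlapped, with Control replicate 2 above all other libraries, and the log2 fold change was -0.07 (SE 0.16, 95% interval -0.43 to 0.28, adjusted p = 0.804). Taf5, its TFIID counterpart, rose from 246, 205 and 251 to 470, 467 and 423 normalized counts, a 1.94-fold difference with no overlap (log2 fold change 0.96, SE 0.13, adjusted p = 0.00154, and at most 0.0155 with any library left out). Within a library, the log2 ratio of Taf5l to Taf5 was -0.20, 0.53 and -0.23 in Control and -0.90, -1.11 and -0.98 in Taf4asKO. All 3 libraries labelled Taf4asKO lay below the lowest Control library, and Control replicate 2 stood above the others. The difference of the means was -1.03 (0.033 ± 0.429 to -0.997 ± 0.104, SD, n = 3), with an exact two-sided permutation p = 0.1, which is the smallest that 3 against 3 libraries can give (0.233 adjusted over 7 pairs).

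Taf6l (chr19:8772522-8786417, minus strand) gave 204, 241 and 198 normalized counts in Control, against 159, 165 and 173 in Taf4asKO. Every library labelled Taf4asKO lay below every Control library, but the difference missed the threshold after adjustment (log2 fold change -0.37, SE 0.14, 95% interval -0.68 to -0.05, adjusted p = 0.118). Taf6, the TFIID paralogue, rose from 127, 171 and 146 to 233, 254 and 208 (1.57-fold, log2 fold change 0.65, SE 0.16, adjusted p = 0.0254), a call lost in 5 of 6 fits with a library left out (adjusted p up to 0.127) and kept without Control replicate 2. The log2 ratio of Taf6l to Taf6 was 0.68, 0.49 and 0.44 in Control and -0.55, -0.62 and -0.26 in Taf4asKO. On counts not divided by length, the ratio was above 0 in each Control library and below 0 in each library labelled Taf4asKO. The difference was -1.01 (0.54 ± 0.13 to -0.48 ± 0.19, SD, n = 3; exact two-sided permutation p = 0.1, 0.233 adjusted over 7 pairs). Exons of Taf6 overlapped those of Ap4m1 on the opposite strand over 26.5% of their bases, and those of Taf6l overlapped AC025794.2 over 5.88%. Per the methods, reads that overlapped several genes were left out, and as the strand setting of the counting is not given, it is uncertain how much of such exons was counted.

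**Figure D2:**
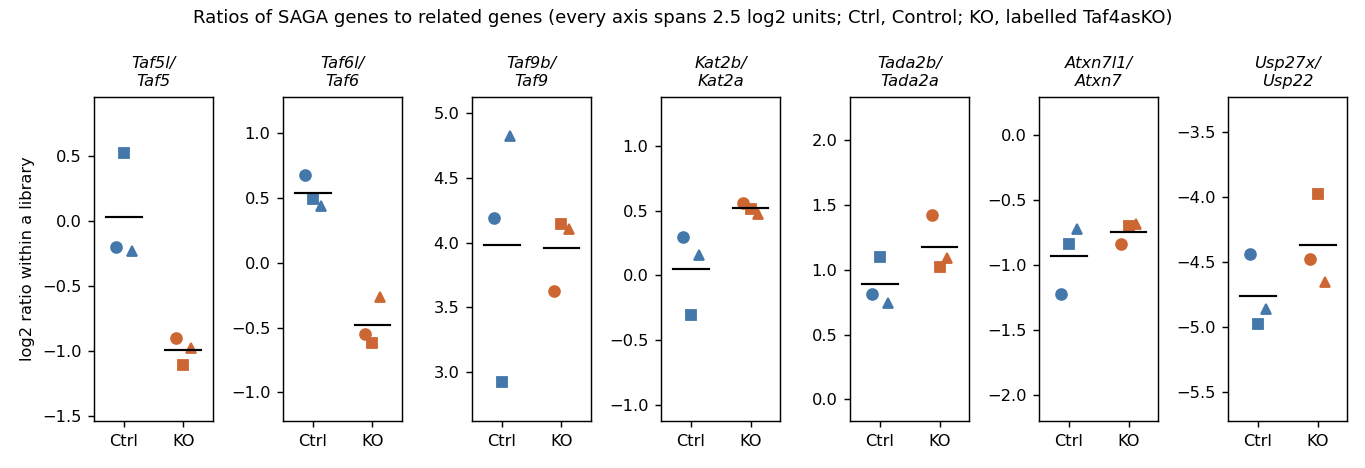
The log2 ratio of normalized counts of 2 related genes within each library (y axis, 2.5 log2 units in every panel) in Control (blue) and Taf4asKO (orange), with symbols as replicate numbers and a line at the mean. Taf5l/Taf5 and Taf6l/Taf6 were lower and Kat2b/Kat2a higher in every library labelled Taf4asKO than in any Control library, and the other 4 pairs overlapped.

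Of the rest of the core, Supt3 and Tada1 were lower and Supt20 higher in every library labelled Taf4asKO, none of them past the threshold, and Supt7l overlapped. Supt3 (chr17:44777152-45119290, plus strand), whose product has a pair of histone folds and contacts the TATA-binding protein, gave 97, 115 and 107 normalized counts in Control, against 65, 86 and 66 in Taf4asKO. Every Taf4asKO value was below the lowest Control value, and the mean difference was 0.679-fold (log2 fold change -0.56, SE 0.19, 95% interval -0.98 to -0.13), which missed the threshold (adjusted p = 0.0843). Its adjusted p was the lowest of the 10 subunits and became 0.0564 with the replicate block. The span of Supt3 also holds Runx2, with no exon shared.

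Tada1 (chr1:166379097-166393621, plus strand) encodes the histone-fold partner of TAF12 in SAGA, the place that TAF4 takes in TFIID. It gave 76, 75 and 73 normalized counts in Control, against 51, 58 and 43 in Taf4asKO. The Control libraries were almost level, and all 3 libraries labelled Taf4asKO were lower, at 0.678-fold (log2 fold change -0.56, SE 0.21, 95% interval -1.02 to -0.10, adjusted p = 0.105). Per kb of exon Tada1 was the least abundant of the subunits, and 34.9% of its exon bases overlapped Gm15853 or Pogk on the opposite strand. Taf12, the partner it shares with TAF4, rose from 233, 266 and 172 to 306, 338 and 347 (1.5-fold, log2 fold change 0.58, SE 0.17, adjusted p = 0.0465). The call of Taf12 was lost in 5 of 6 fits with a library left out (adjusted p up to 0.164) and kept without Control replicate 2.

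Supt7l, on chromosome 5, encodes the histone-fold partner of TAF10 in SAGA and gave 131, 179 and 146 normalized counts in Control against 133, 136 and 151 in Taf4asKO. The Taf4asKO values lay within the range of Control (log2 fold change -0.11, SE 0.17, adjusted p = 0.715). Supt20, on chromosome 3, encodes the scaffold protein SPT20 and gave 704, 699 and 675 against 786, 758 and 728. It was the single subunit with every library labelled Taf4asKO above Control, but by little (1.09-fold, log2 fold change 0.13, SE 0.10, adjusted p = 0.411). Exons of Supt20 overlapped Gm21958 and Exosc8 on the opposite strand over 11.8% of their bases.

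The acetyltransferase module is represented by Tada2b and Tada3, the adaptors of the acetyltransferase. Tada2b, the form of ADA2 used in SAGA (chromosome 5), gave 327, 381 and 286 normalized counts in Control, against 417, 346 and 297 in Taf4asKO. Tada3 (chromosome 6), shared with the related ATAC complex, gave 176, 224 and 200 against 197, 177 and 181. Both overlapped between the groups, with log2 fold changes of 0.09 (SE 0.16, adjusted p = 0.761) and -0.11 (SE 0.14, adjusted p = 0.676). Tada2a, the ADA2 form of ATAC, gave 186, 177 and 170 against 155, 170 and 139 (log2 fold change -0.20, adjusted p = 0.391). The log2 ratio of Tada2b to Tada2a was 0.89 ± 0.19 in Control and 1.18 ± 0.21 in Taf4asKO (SD, n = 3; exact permutation p = 0.3).

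In the deubiquitinase module, Usp22 (chromosome 11) encodes the ubiquitin protease and Atxn7 (chromosome 14) the protein that anchors the module to the core. Usp22 gave 1757, 1791 and 1768 normalized counts in Control, against 2090, 1791 and 1735 in Taf4asKO. Atxn7 gave 836, 628 and 706 against 787, 760 and 732. Neither separated the groups, and Taf4asKO replicate 1 alone stood above Control in Usp22. The log2 fold changes were 0.07 for Usp22 (SE 0.10, 95% interval -0.15 to 0.29, adjusted p = 0.668) and 0.08 for Atxn7 (SE 0.12, 95% interval -0.19 to 0.35, adjusted p = 0.709). For 3 subunits the 95% interval stayed within 1.3-fold in both directions, with upper bounds of 1.27-fold for Supt20, 1.27-fold for Atxn7 and 1.23-fold for Usp22. For the other 7, a difference of that size was not excluded by the interval.

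Levels between genes were compared as normalized counts per kb of exon (GENCODE M21). In Control, Usp22 was the most abundant at 363 ± 3.55 per kb (SD, n = 3), followed by Supt20 at 111 ± 2.47, Atxn7 at 90.7 ± 13.2, Tada2b at 87.4 ± 12.6 and Taf5l at 67.6 ± 13.3. Tada3 stood at 51.5 ± 6.18 per kb, Taf6l at 42.7 ± 4.64, Supt3 at 25.8 ± 2.19, Supt7l at 21.7 ± 3.51 and Tada1 at 18.2 ± 0.372. The Control ranges of Atxn7 and Tada2b, Tada2b and Taf5l, Tada3 and Taf6l, and Supt3 and Supt7l overlapped, so those neighbours in the order were not separated. The subunits with unadjusted p under 0.05 lay in the lower part of this order. In Taf4asKO the order of the means was the same but for Supt7l, which stood above Supt3 at 17.6 per kb, while Usp22 stood at 383 and Tada1 at 12.3 per kb. The median SD of log2 values within a group was 0.151 for the 10 subunits and 0.262 over all genes tested.

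**Figure D3:**
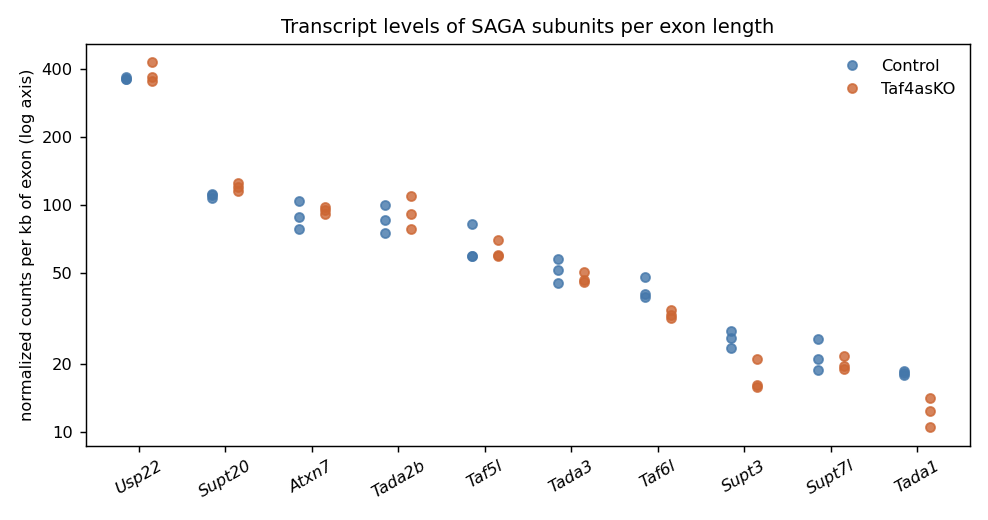
Normalized counts per kb of exon (y axis, log scale) of the 10 SAGA subunits, ordered by the Control mean, with 1 point per library in Control (blue) and Taf4asKO (orange). Usp22 stood at 360 to 367 per kb in Control and Tada1 at 17.8 to 18.5 per kb, and the orange points of Taf6l, Supt3 and Tada1 lay below the blue ones.

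The other 14 genes of the complex, from a list of its known subunits, included 4 past the threshold, 2 lower (6.71% of all genes tested were lower) and 2 higher (5.93%), with a median log2 fold change of -0.016. Without Control replicate 1, Taf4asKO replicate 2 or Taf4asKO replicate 3, 1 of 14 passed, against 9.24%, 5.25% and 5.14% of all genes in those fits, and without Taf4asKO replicate 1, 2 passed, against 6.72%. In the deubiquitinase module, Atxn7l3, which with ENY2 is needed for the activity of USP22, fell from 804, 703 and 653 to 584, 453 and 489 normalized counts (0.705-fold, log2 fold change -0.50, SE 0.13, adjusted p = 0.0307). Atxn7l2, a paralogue of Atxn7, fell from 202, 162 and 184 to 119, 124 and 109 (0.646-fold, log2 fold change -0.63, SE 0.15, adjusted p = 0.0253). With a library left out, the call of Atxn7l3 was lost in 3 of 6 fits (without Control replicate 1, Taf4asKO replicate 2 or 3; adjusted p up to 0.145) and that of Atxn7l2 in 5 of 6, all but that without Control replicate 2 (up to 0.118). The third paralogue, Atxn7l1, gave 358, 350 and 426 against 439, 466 and 455 (log2 fold change 0.27, adjusted p = 0.168), and Eny2 gave a log2 fold change of -0.11 (adjusted p = 0.667). Usp27x, another protease that works with ATXN7L3 and ENY2, gave 80, 56 and 60 against 93, 113 and 68 (log2 fold change 0.46, adjusted p = 0.236).

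Of the alternative catalytic subunits, Kat2a (GCN5) gave 777, 910 and 718 normalized counts in Control, against 560, 646 and 623 in Taf4asKO. Kat2b (PCAF) gave 954, 737 and 801 against 826, 922 and 866. Kat2a was lower in every library labelled Taf4asKO but missed the threshold (log2 fold change -0.39, SE 0.12, adjusted p = 0.0573), which it passed with the replicate block (0.763-fold, adjusted p = 0.024), and Kat2b overlapped (log2 fold change 0.08, adjusted p = 0.718). The log2 ratio of Kat2b to Kat2a was 0.05 ± 0.31 in Control and 0.52 ± 0.04 in Taf4asKO (SD, n = 3), with no overlap (exact two-sided permutation p = 0.1, 0.233 adjusted over 7 pairs). Sgf29, the reader of methylated histone H3 in the module, gave a log2 fold change of 0.47 that missed the threshold (SE 0.24, adjusted p = 0.232).

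Trrap gave 3532, 3400 and 3175 normalized counts in Control, against 2888, 2715 and 2765 in Taf4asKO (log2 fold change -0.27, SE 0.09, adjusted p = 0.0725). Sf3b3, a splicing factor that is also part of SAGA, gave 1785, 2130 and 1704 against 1462, 1514 and 1457 (log2 fold change -0.34, adjusted p = 0.0625). Both were lower in all 3 libraries labelled Taf4asKO and missed the threshold. Sf3b5, its partner, gave a log2 fold change of 0.21 (adjusted p = 0.475).

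Among the subunits that SAGA shares with TFIID, Taf9b rose from 72, 75 and 84 to 135, 158 and 188 normalized counts (2.05-fold, log2 fold change 1.04, SE 0.18, adjusted p = 0.00548), a call kept in all 6 fits with a library left out (adjusted p of at most 0.0425). Taf12 is given above. Taf9, the paralogue of Taf9b, stood at 3, 9 and 2 against 10, 8 and 10, with 73.8% of its exon bases shared with Ak6 on the same strand, so that its level and the ratio of Taf9b to Taf9 (difference -0.02, exact permutation p = 0.9) are uncertain. Taf10 gave a log2 fold change of -0.13 (adjusted p = 0.474), with 45.9% of its exon bases overlapping Ilk on the opposite strand.

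**Figure D4:**
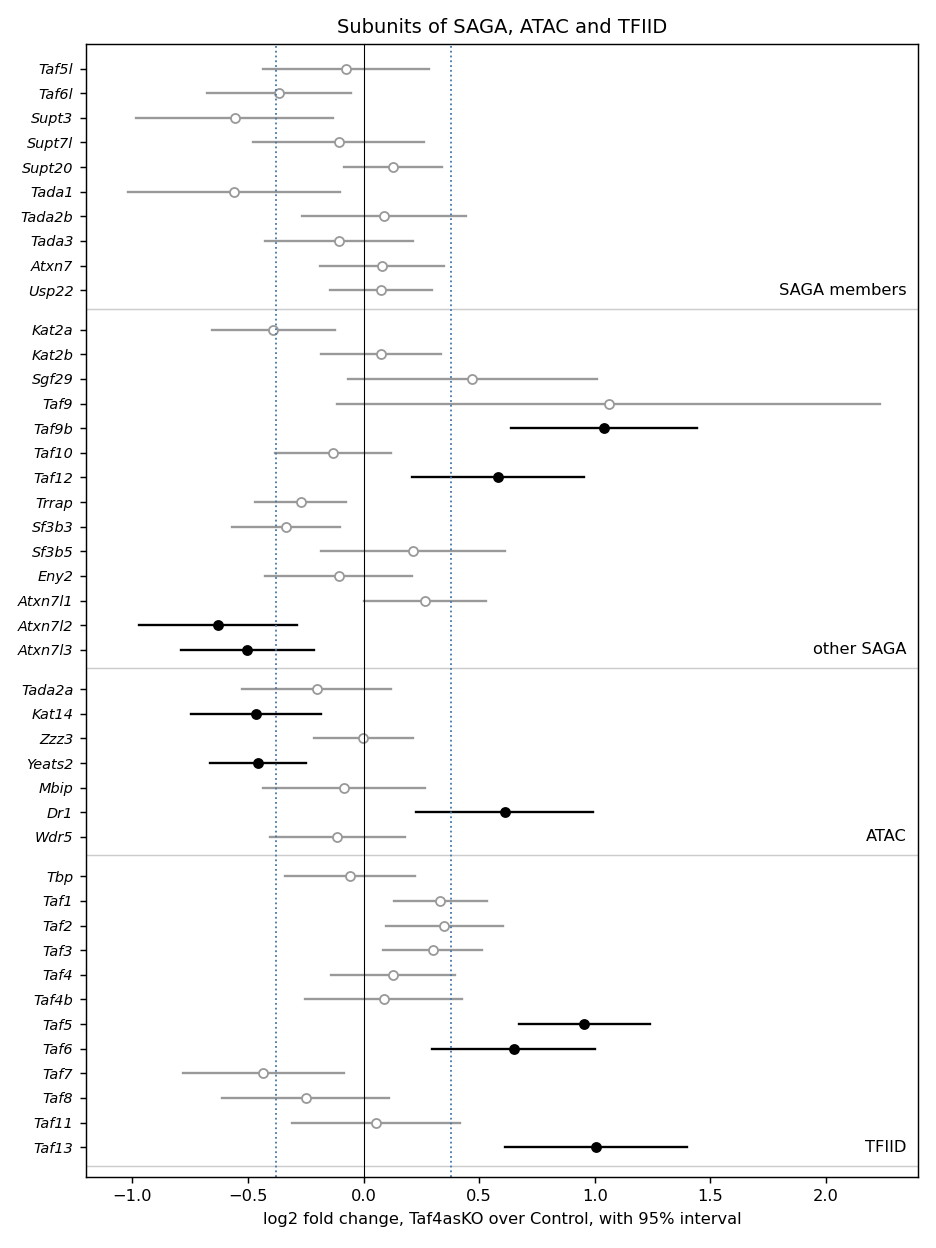
The log2 fold change of Taf4asKO over Control (x axis) with its 95% interval for the 10 SAGA subunits, 14 other SAGA subunits, 7 ATAC and 12 TFIID subunits, with filled black points for genes past the threshold and dotted lines at 1.3-fold. Filled points number 0 of 10, 4 of 14, 3 of 7 and 3 of 12 from top to bottom, beside 12.6% of all genes tested, and the lists were not tested against each other.

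In ATAC, the other complex around GCN5 and PCAF, 3 of 7 listed subunits passed the threshold, against 12.6% of all genes tested, 2 lower (6.71%) and 1 higher (5.93%). Kat14, a further acetyltransferase, was lower (log2 fold change -0.47, adjusted p = 0.0371), as was Yeats2, a reader of acylated histones (log2 fold change -0.46, adjusted p = 0.0116), and Dr1, a histone-fold protein, was higher (log2 fold change 0.61, adjusted p = 0.0432). This count fell to 1 without Control replicate 1 or 3 (9.24% and 11.7% of all genes called) and to 0 without any 1 of the libraries labelled Taf4asKO (5.14% to 6.72% of all genes called). Of 12 TFIID subunits, 3 passed, all higher, against 5.93% of all genes called higher: Taf5, Taf6 and Taf13 (2.01-fold, adjusted p = 0.00584). Taf7 missed the threshold (log2 fold change -0.43, adjusted p = 0.0995) and passed it with the replicate block (adjusted p = 0.0362). The median log2 fold change was -0.113 over the ATAC list and 0.214 over the TFIID list, beside -0.091 over the 10 SAGA subunits. Whether these lists differ from each other was not tested.

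The remaining pairs were Atxn7l1 with Atxn7 and Usp27x with Usp22. The ratio of Atxn7l1 to Atxn7 differed by 0.19 on the log2 scale (exact permutation p = 0.2), but by 0.041 without Control replicate 1. That of Usp27x to Usp22 differed by 0.39 (exact permutation p = 0.3), and by 0.193 to 0.549 when a library was left out. Over the 6 libraries, the genes whose log2 values followed those of Supt3 most closely, out of 10587 genes whose mean reached 50, were Mdk (Pearson r = 0.9952), Apc2 (r = 0.9938) and Dmap1 (r = 0.9915), and 94 genes lay above 0.95. Dmap1 gave 150, 179 and 171 normalized counts in Control, against 118, 140 and 118 in Taf4asKO. These 6 points share the difference between the groups and the scaling of each library, and the correlations are a description.

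Start regions of 8 of the 10 subunits were read here, and those of Tada1 and Usp22 were not analysed. CCAAT on either strand was in 4 of these 8 windows (Taf6l, Supt7l, Supt20 and Tada2b), and in 37.4% of 32851 start regions of the genome. GGGCGG on either strand was in 6 of 8 (Taf5l, Taf6l, Supt3, Supt20, Tada2b and Atxn7), and in 35.7% of all. TATAAA, the core of the TATA box, was in 0 of 8, and in 13.6% of all. For Taf5l and Supt20, with 2 and 3 listed start regions, the one nearest to the gene's start in the table was read. The windows of the 8 subunits held 11 to 43 CpG dinucleotides, against a median of 7 over all start regions. The window of Atxn7 lies 51051 bases from the gene's start in the table. Among the subunits with an unadjusted p under 0.05, Taf6l held both motifs and Supt3 GGGCGG alone, 87 bases before the start and at position 42 after it.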

How the data were processed

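Per the study's methods, RNA of sorted cells (10 ng per library) was made into SMARTer stranded total RNA libraries, from which single-end reads were trimmed (Trimmomatic 0.39) and mapped to mm10 (STAR 2.6.0c). The authors counted uniquely assigned reads over exons with featureCounts 1.6.0 and normalized the counts with DESeq2 1.14.1. The deposited values are treated as a score: normalized counts that the authors rounded to whole numbers, which was inferred from the values and the methods, so a count model was not used. The strand setting of the counting is not given in the sources used here. The table held 22081 genes and 0 value columns without a sample.

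Genes with a mean of at least 5 were tested with limma 3.58.1 (R 4.3.3; lmFit, eBayes with trend, two-sided) on log2(value + 1) over all 6 libraries with no covariate, with Benjamini-Hochberg adjustment over 18562 genes, and the test was tested on simulated data. Fold changes are on that scale, which understates changes of low genes. Ratios of 2 genes were compared by exact two-sided permutation (scipy 1.17.1). Figures were drawn with matplotlib 3.10.9. The named genes are the 10 subunits, the listed subunits of SAGA, ATAC and TFIID, USP22 paralogues (Usp51 was not in the table), Taf4, and the 3 genes most alike to the subunit with the smallest adjusted p. The members and lists were chosen with earlier results of these data known. Libraries of a group differed by more than sampling noise (lowest chi-square over its degrees of freedom 4.03), so none was merged. Replicate numbers come from the titles. Equal numbers deviated together (r across genes of 0.235, 0.126 and 0.15, against -0.149 to 0.0141 for unequal numbers) and were taken as pairs in a second fit. Other alternatives changed scaling, pseudocount, filter, limits and variance shrinkage, or left out a library.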

Additional observations from a re-analysis of the deposited data

How the results depend on the processing

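The count of SAGA subunits past the threshold stayed at 0 of 10 in all but 1 of 20 alternatives, the replicate block and each left-out library included. Those with no fold limit, a 2-fold limit or an adjusted p under 0.01 reused the main fit. The lowest adjusted p there was 0.0843, so these could give only 0. Fits with a library left out called 5.14% to 16.6% of all genes, against 12.6% in the main fit. The count became 1 of 10 (Supt3, lower, log2 fold change -0.67, adjusted p = 0.025), against 17.8% of all genes in that fit, when the replicate block was joined to a correction of each library for the GC content and length of exons. That correction was chosen after seeing the data, and without the block it gave Supt3 an adjusted p of 0.0503. Over all alternatives the adjusted p of Supt3 ran from 0.025 to 0.258, that of Tada1 from 0.0874 to 0.323 and that of Taf6l from 0.0741 to 0.284. The replicate block changed no call of the 10 subunits. The count of other SAGA subunits past the threshold (4 of 14) became 1 with a 2-fold limit (4.58% of all genes) and 1 at an adjusted p under 0.01 (4.72%). It became 2 with the correction for GC content and length (11.5%), and ran from 1 to 5 when a library was left out (5.14% to 16.6%). The count of ATAC subunits (3 of 7) became 0 with a 2-fold limit, 0 at an adjusted p under 0.01 and 1 with the correction. It ran from 0 to 3 when a library was left out. That of TFIID subunits (3 of 12) became 1 with a 2-fold limit and ran from 2 to 4 when a library was left out. The shares of all genes in these fits are those just given. The ATAC and TFIID counts were followed over the alternatives after the data were seen. Taf12, Atxn7l2 and Atxn7l3 lost the call in 7, 8 and 7 of 20 alternatives, and Kat2a gained it in 5, the replicate block among them (adjusted p = 0.024). Leaving out a library turned the sign of small differences (Control replicate 2 for Taf5l, Supt7l, Atxn7 and Kat2b, Control replicate 3 or Taf4asKO replicate 1 for Tada2b, Taf4asKO replicate 1 for Usp22), which ranged from -0.152 to 0.0808 for Taf5l, -0.208 to 0.0153 for Supt7l, -0.0376 to 0.206 for Tada2b, -0.0168 to 0.189 for Atxn7, -0.00748 to 0.127 for Usp22 and -0.00613 to 0.18 for Kat2b. The difference of Taf9b/Taf9 (-0.022) became 0.369 with a pseudocount of 5 and ran from -0.549 to 0.4 when a library was left out. That of Taf5l/Taf5 ran from -1.161 to -0.782, the latter without Control replicate 2, and that of Taf6l/Taf6 from -1.12 to -0.942. The difference of Kat2b/Kat2a (0.466) ran from 0.289, without Control replicate 2, to 0.589. Genes past the threshold numbered 850 with a 2-fold limit, 876 at an adjusted p under 0.01, 2140 with the correction for GC content and length and 956 to 3096 when a library was left out. With 3 libraries per group the interval of 7 of the 10 subunits reached past 1.3-fold.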
